A study of Mus musculus with 8 samples.

Results

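The 5 NF-κB subunit genes (Nfkb1, Nfkb2, Rela, Relb and Rel) and 5 genes of inhibitors of the pathway (Nfkbia, Nfkbib, Nfkbie, Tnfaip3 and Birc3) were followed in a pair of mouse colon carcinoma lines. Every non-control array spot annotated with one of these 10 symbols was taken, which gave 15 probes of the 41174 on the array. Of these, 13 probes of 9 genes could be tested, among 23068 kept probes of 15097 genes. CT26 is a colon carcinoma line of the BALB/c strain (the labels give the strain as Balb/c and the gender as male). CT26-FL3 was derived from it by 3 passages through the liver of mice, after which lesions were digested with enzymes and the cells were kept briefly in culture to lose stromal cells, so it is 1 selected line of the same parent. Both lines were grown in DMEM with 10% serum and without any treatment named in the labels, and total RNA of 4 samples of each was labelled with Cy3 from 500 ng (RNA integrity numbers 8 to 10) and hybridised to 1-colour Agilent arrays. The samples are described as independent, but whether each came from its own culture is not said, so every p-value here speaks to the spread among these arrays and may reflect technical variation alone. The comparison addresses what sets the line with high liver metastasis apart from its parent.

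NF-κB is a family of dimeric transcription factors that are held in the cytoplasm by inhibitory IκB proteins. In the canonical route the IKK complex phosphorylates IκBα, the product of Nfkbia, which is then degraded and releases dimers such as Nfkb1 p50 with Rela. In the non-canonical route the kinase NIK (Map3k14) drives processing of the Nfkb2 precursor p100 to p52, which pairs with Relb. The factor switches on its own brakes, among them IκBα, IκBε (Nfkbie) and the ubiquitin-editing enzyme A20 (Tnfaip3), and in colon carcinoma the pathway is best known for driving inflammatory cytokines and survival genes. Transcript levels do not show where the proteins are or whether the factor binds DNA.

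Of the 9 genes with a tested probe, 4 rose in CT26-FL3 on their brightest kept probe: Relb 1.39-fold, Tnfaip3 1.26-fold, Nfkbie 1.18-fold and Nfkbia 1.13-fold. The brightest kept probe of Nfkb1, Nfkb2, Rela, Nfkbib and Birc3 did not pass the test, and Rel stayed below the detection limit on all 8 arrays. Over all 15097 genes by the same rule, 23.8% were called higher, 25.0% lower and 48.8% either way, so 4 of 9 genes called in either direction is close to the share over all genes. The median difference of the 9 genes was 0.15 on the log2 scale, while the median over all genes was -0.01. Of the 9 genes, 8 were fitted above 0, beside 7422 of 15097 over all genes. Among the 13 member probes, 4 were called higher and 1 lower (a dim second probe of Birc3), where 22.9% and 25.4% of all kept probes were called in those directions and 48.3% in either. The lines did not overlap on 6 of the 13 probes, 5 higher and 1 lower, against 46.0% of all kept probes in either direction, 21.9% higher and 24.2% lower. By brightest kept probe they did not overlap for 5 of the 9 genes, all higher, against 47.4% of all genes in either direction, 23.2% higher and 24.2% lower. The size of a called change had a median of 0.38 on the log2 scale over all called probes. Of all called probes, 63.9% had a smaller change than Relb, 39.8% a smaller one than Tnfaip3, 19.4% than Nfkbie and 4.30% than Nfkbia. In bulk RNA, fewer cells with a transcript and less of it per cell cannot be told apart.

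Promoter sequences were taken from RefSeq (GRCm38.p6, 250 bases before each annotated start) because NF-κB genes are textbook targets of their own product. Of the 10 genes, 8 had an entry, while Relb and Nfkb1 had none and were not searched. The search was for the 10-base κB consensus on both strands, and the capitals below mark its matches, written 5′ to 3′ on the strand of the gene. The first 3 sequences belong to the inhibitor genes that rose, the next to Nfkb2 and the last to Rel.
Nfkbia (chr12:55492648-55492696, minus strand): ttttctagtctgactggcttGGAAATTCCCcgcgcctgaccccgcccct
Nfkbie (chr17:45555574-45555623, plus strand): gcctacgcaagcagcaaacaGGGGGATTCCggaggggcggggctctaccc
Tnfaip3 (chr10:19015411-19015555, minus strand): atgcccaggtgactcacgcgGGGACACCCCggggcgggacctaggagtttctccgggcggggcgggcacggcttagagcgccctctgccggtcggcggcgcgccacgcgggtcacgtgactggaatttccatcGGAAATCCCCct
Nfkb2 (chr19:46304678-46304736, plus strand): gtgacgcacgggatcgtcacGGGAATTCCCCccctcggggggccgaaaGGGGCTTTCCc
Rel (chr11:23771031-23771081, minus strand): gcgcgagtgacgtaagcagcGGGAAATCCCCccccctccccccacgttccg

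The match of Nfkbia began 29 bases before the annotated start and that of Nfkbie 106 bases before it. Of the 2 matches shown for Tnfaip3, the nearer began 12 bases before its upstream start. At the first annotated start of Nfkb2, overlapping matches began at 39 and 38 bases and a further one at 11 bases, and its other starts held matches at 236 and 225 bases. Rel had overlapping matches at 92 and 91 bases. In all, 5 of the 8 member genes with an entry (62.5%) held a match in at least 1 promoter, against 1204 of 27025 genes (4.46%) over the whole table, and no match was found for Rela, Nfkbib and Birc3 in this window. Of the 4 genes with a match and a tested probe, 3 rose (Nfkbia, Nfkbie and Tnfaip3) and Nfkb2 did not pass the test. Relb, which rose most, and Nfkb1, which did not pass, are outside this count for want of an entry. Of all 578 tested genes with a match, 29.6% were called higher and 24.6% lower. A match is a description of these letters, and nothing here measures binding.

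**Figure D1:**
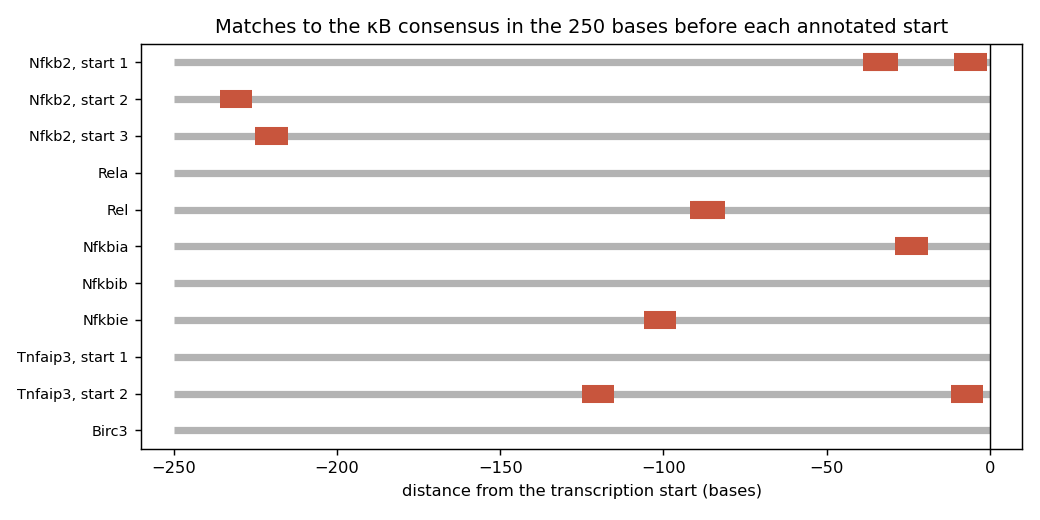
Positions of matches to the 10-base κB consensus in the 250 bases before each annotated start of the member genes with a RefSeq promoter entry, in bases before the start, 1 line per start. Matches lie at the starts of Nfkbia, Nfkbie, Tnfaip3, Nfkb2 and Rel, and none are drawn for Rela, Nfkbib and Birc3. Relb and Nfkb1 have no entry and no line.

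Relb, the subunit that carries the non-canonical dimer to the nucleus, had the largest rise of the 9 genes with a tested probe. Levels are given as log2 intensity minus the 75th percentile of the same array, so that 0 is that percentile. On this scale Relb stood at 2.17, 2.08, 2.12 and 2.28 in CT26 replicates 1 to 4 and at 2.63, 2.65, 2.56 and 2.70 in CT26-FL3 replicates 1 to 4. All 4 CT26-FL3 arrays lay above all 4 CT26 arrays, and the gap between the nearest arrays was 0.28, wider than the range within either line. The means were 2.16 ± 0.09 and 2.64 ± 0.06 (SD, n = 4), and the difference was 0.48 (SE 0.06, 95% interval 0.34 to 0.61, limma adjusted p = 0.000199). Relb kept its call under all 22 alternatives, with differences between 0.43 and 0.52.

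Nfkb2, whose p52 product is the partner of Relb, had levels of 3.28, 3.18, 3.32 and 3.28 in CT26 and 3.37, 3.41, 3.33 and 3.43 in CT26-FL3. The lines did not overlap, but the nearest arrays were only 0.02 apart. The difference of 0.12 (SE 0.05, 95% interval 0.01 to 0.23) did not pass after limma's adjustment over all probes (limma adjusted p = 0.0672). It passed under 3 of the 22 alternatives: the deposited log2 table (adjusted p = 0.0373), quantile normalization (0.0364) and an intensity trend in the variance (0.0473).

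Rela, the transactivating partner of the canonical dimer, was measured by 2 probes. On the brighter probe its levels were 3.02, 2.98, 2.84 and 2.96 in CT26 and 3.04, 3.00, 2.99 and 3.13 in CT26-FL3. The lines overlapped, with CT26 replicate 3 lowest and CT26-FL3 replicate 4 highest, and the difference was 0.09 (SE 0.06, 95% interval -0.04 to 0.22, limma adjusted p = 0.225). The second probe, printed as 10 spots on each array, gave 0.07 (SE 0.07, 95% interval -0.09 to 0.22, limma adjusted p = 0.439). These intervals leave room for a rise of up to 0.22 and a fall of less than 0.1.

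Nfkb1, which encodes p105 and p50 and is itself induced by the factor, did not pass the test on any of its 3 kept probes. On the brightest, also printed as 10 spots, the levels were 0.92, 1.04, 0.88 and 1.03 in CT26 and 0.90, 0.92, 0.99 and 0.98 in CT26-FL3. The CT26-FL3 arrays lay wholly within the range of the CT26 arrays. The difference was -0.02 (SE 0.05, 95% interval -0.14 to 0.10, limma adjusted p = 0.799). The other 2 kept probes gave -0.14 (SE 0.08, limma adjusted p = 0.146) and -0.08 (SE 0.11, limma adjusted p = 0.558), and the remaining probe was above the limit on CT26 replicate 2 alone and was not tested. All 4 Nfkb1 probes are named by the array's own annotation. Between the 10 spots of a probe on 1 array the SD of log2 intensity had a median of 0.0928 for Nfkb1 and 0.0847 for Rela.

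Rel, which encodes the c-Rel subunit known mainly from lymphoid cells, had intensities of 2.58, 4.91, 6.05 and 7.00 in CT26 and 2.92, 3.39, 4.90 and 3.09 in CT26-FL3. The limit lay between 16.9 and 23.2 on the 8 arrays, so its probe was not well above background in either line and no fold is given.

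**Figure D2:**
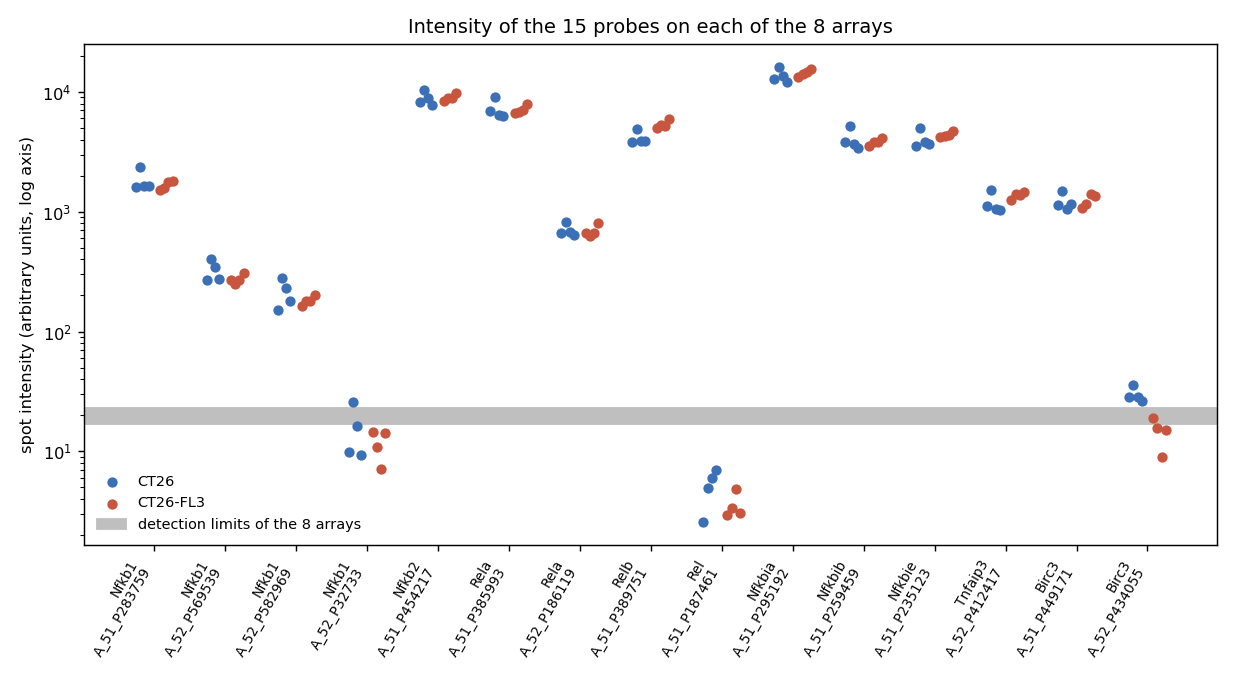
Deposited background-subtracted intensity (log axis) of each member probe on each of the 8 arrays, with the detection limits. Rel and 1 probe of Nfkb1 lie at or near the limit or below it, the second Birc3 probe straddles it, and the other probes lie above it on all arrays.

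Among the inhibitors, Tnfaip3 had the largest rise. A20, its product, trims ubiquitin chains from signalling complexes upstream of IKK. Its levels were 0.39, 0.40, 0.24 and 0.35 in CT26 and 0.62, 0.73, 0.65 and 0.70 in CT26-FL3. All CT26-FL3 arrays were higher than all CT26 arrays, with a gap of 0.22. The means were 0.35 ± 0.07 and 0.67 ± 0.05 (SD, n = 4) and the difference was 0.33 (SE 0.05, 95% interval 0.21 to 0.45, limma adjusted p = 0.00103).

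Nfkbie encodes IκBε, an inhibitor that in mouse fibroblasts acts later than IκBα in the negative feedback. It stood at 2.07, 2.11, 2.09 and 2.19 in CT26 and at 2.37, 2.35, 2.31 and 2.39 in CT26-FL3, without overlap and with a gap of 0.12. The difference was 0.24 (SE 0.05, 95% interval 0.14 to 0.34, limma adjusted p = 0.00258). Nfkbia, the gene of IκBα and the classic rapid feedback target, stood at 3.92, 3.82, 3.92 and 3.92 in CT26 and at 4.04, 4.06, 4.06 and 4.10 in CT26-FL3. These groups did not overlap either, and CT26 replicate 2 lay below its 3 fellows. The difference of 0.17 (SE 0.05, 95% interval 0.07 to 0.27, limma adjusted p = 0.0131) was the smallest of the 4 called rises. The call of Nfkbia was lost under 5 of the 22 alternatives (adjusted p up to 0.185) and that of Nfkbie under 3 (adjusted p up to 0.133).

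Nfkbib encodes IκBβ, which is degraded and made again more slowly than IκBα. Its levels of 2.17, 2.18, 2.06 and 2.08 in CT26 and 2.13, 2.19, 2.10 and 2.19 in CT26-FL3 overlapped over nearly the whole range. The difference was 0.03 (SE 0.05, 95% interval -0.08 to 0.14, limma adjusted p = 0.638).

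Birc3 encodes cIAP2, a ubiquitin ligase that, with its relative cIAP1 (Birc2), holds NIK low in resting cells, and it was measured by 2 probes. On the brighter probe the levels were 0.41, 0.37, 0.24 and 0.52 in CT26 and 0.41, 0.47, 0.67 and 0.57 in CT26-FL3. The lines overlapped and the difference was 0.15 (SE 0.08, 95% interval -0.03 to 0.32, limma adjusted p = 0.153). The second probe was dim, with intensities of 28.5, 36.0, 28.2 and 26.3 in CT26 and 18.9, 15.6, 9.02 and 15.1 in CT26-FL3. It was above the limit on all 4 CT26 arrays but on only 1 CT26-FL3 array. The CT26 arrays alone thus met the filter, so the call of this dim probe partly follows from the filter. It was called lower, with a fitted difference of -0.97 on the log2 scale (SE 0.21, limma adjusted p = 0.0054) that rests on signal below the limit on the other 3 CT26-FL3 arrays. When 50 was added to all intensities, the difference of the dim probe was -0.22 and its limma adjusted p 0.0507. Without CT26-FL3 replicate 3, its lowest array, the difference was -0.74.

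**Figure D3:**
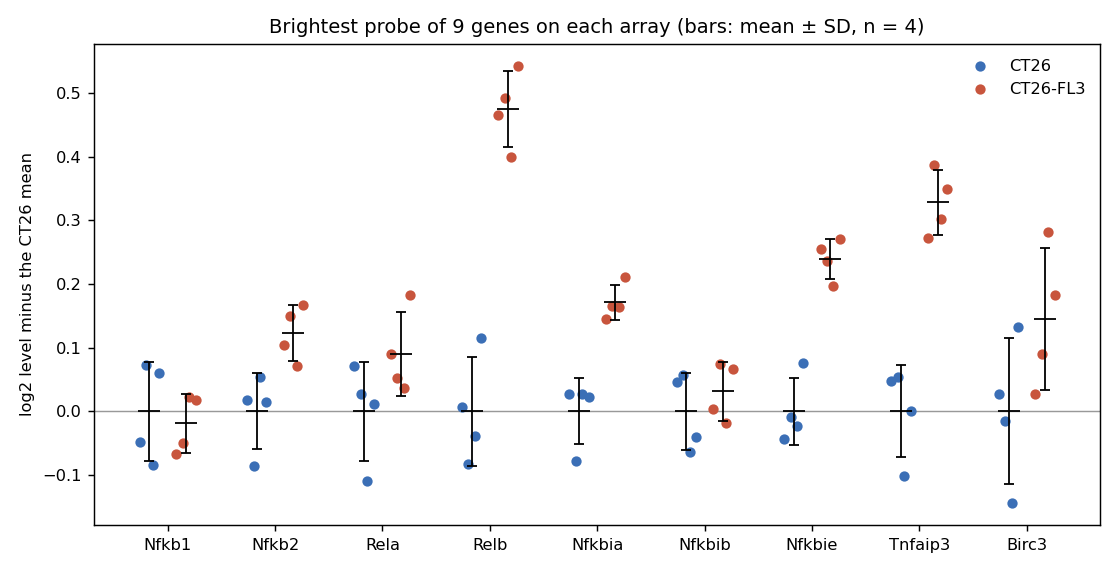
Normalized log2 level minus the CT26 mean for the brightest kept probe of 9 genes, by array, with mean and SD of each line. For Relb, Tnfaip3, Nfkbie, Nfkbia and, narrowly, Nfkb2 all 4 CT26-FL3 arrays lie above all 4 CT26 arrays. For Rela, Nfkb1, Nfkbib and the brighter Birc3 probe the lines overlap.

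A number in the array names is shared by replicates 1 and 2 of both lines, and another by replicates 3 and 4. What the number stands for is not said, and arrays that share it are called a set here. With that set as a block, Relb (0.48, limma adjusted p = 0.000437), Tnfaip3 (0.33, adjusted p = 0.00151), Nfkbie (0.24, adjusted p = 0.00444) and Nfkbia (0.17, adjusted p = 0.0161) remained past the threshold. Within replicates 1 and 2 the differences were 0.52 for Relb, 0.28 for Tnfaip3, 0.27 for Nfkbie and 0.18 for Nfkbia. Within replicates 3 and 4 they were 0.43, 0.38, 0.21 and 0.16 in the same order. The direction was the same in both sets for all 4 genes. With 2 arrays per line, Relb passed in both sets (limma adjusted p = 0.0142 and 0.0433) and Tnfaip3 in the second alone (adjusted p = 0.0750 and 0.0356). Nfkbie (adjusted p = 0.0663 and 0.133) and Nfkbia (adjusted p = 0.185 and 0.168) passed in neither. The dim Birc3 probe gave -0.64 and -1.31. It was kept through the CT26 arrays and was above the limit on only 1 CT26-FL3 array, so these values add no support to its call.

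**Figure D4:**
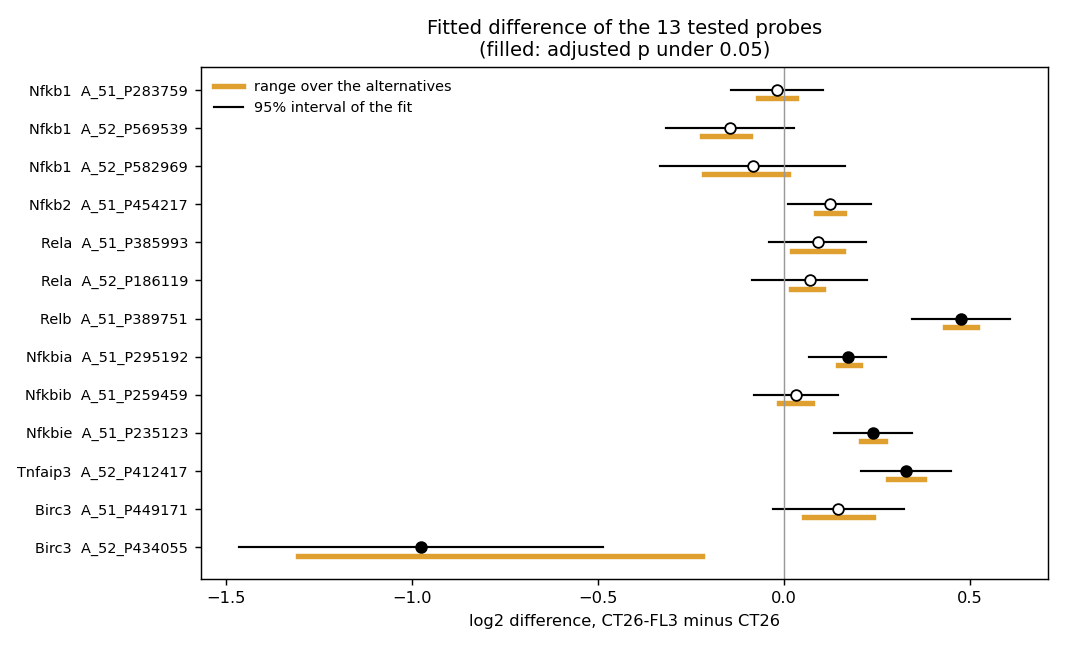
Difference CT26-FL3 minus CT26 in normalized log2 level for each of the 13 kept member probes, with 95% intervals. The intervals of Relb, Tnfaip3, Nfkbie and Nfkbia lie above 0 and are called after adjustment, that of the dim Birc3 probe lies below 0, and the interval of Nfkb2 lies just above 0 without passing the adjusted threshold.

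Whether the genes differed among themselves was tested within arrays, on the difference between each pair of the 9 brightest kept probes. With 36 pairs and 4 arrays per line, the smallest two-sided exact permutation p is 0.0286. The smallest adjusted p was 0.0571, which 18 pairs reached, so no pair passed the threshold. Whether a pair passes depends on how many pairs share that smallest p, and 18 were too few. The test therefore cannot decide for a single pair. In log2 units the change of Rela minus that of Relb was -0.385 (SE 0.0551), and Nfkb1 minus Relb gave -0.494 (SE 0.0648). Relb minus Nfkbia gave 0.304 (SE 0.0404), and in each of these 3 pairs the arrays of the lines did not overlap. Against Tnfaip3 the change of Relb was larger by 0.147 (SE 0.0619), and the arrays overlapped (exact permutation p = 0.0857, adjusted p = 0.140). Within the IκB family, Nfkbib minus Nfkbie gave -0.208 (SE 0.0512) and Nfkbia minus Nfkbie gave -0.0680 (SE 0.0390), the first without and the second with overlap.

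The genes whose pattern over the 8 arrays was most like that of Relb, among 11608 genes outside the members, were Cpe (Pearson r = 0.998), Adck2 (0.997) and Igsf3 (0.994). For the dim Birc3 probe, whose values on 3 CT26-FL3 arrays were below the limit, they were Ikbip (0.984), Sgms1 (0.983) and Utp14b (0.981). These correlations are descriptions over 8 arrays that share the split between the lines, and they carry no p.

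Upstream of the subunits, the list of kinases and adaptors held 37 genes, of which 35 could be tested, and their median difference was 0.06. In this list 9 rose, 8 fell and 18 missed the threshold, where 23.8% of all genes were called higher and 25.0% lower. None of the IKK core passed. Chuk (IKKα) gave 0.09, Ikbkb (IKKβ) 0.02 and the scaffold Ikbkg (NEMO) -0.07, with limma adjusted p of 0.287, 0.831 and 0.489. Map3k14, the kinase NIK of the non-canonical route, fell by 0.26 (SE 0.06, limma adjusted p = 0.00713), with 1.96, 1.88, 1.99 and 1.87 in CT26 against 1.62, 1.80, 1.65 and 1.59 in CT26-FL3. All CT26-FL3 arrays were lower. This call was lost within replicates 1 and 2, within replicates 3 and 4, and under the block by title numbers. Of the adaptors that restrain NIK, Traf3 gave 0.12 (limma adjusted p = 0.0727) and Birc2 0.08 (adjusted p = 0.339).

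The largest called changes in that list were of signalling scaffolds and an IKK relative. Card10, which links protein kinase C to IKK outside the immune system, fell by 1.16 (SE 0.09, limma adjusted p = 1.32e-05) and by 1.71 on a second probe. Its partner Malt1, a paracaspase that also cleaves A20 in human and mouse lymphocytes, fell by 0.44 (SE 0.07, limma adjusted p = 0.000994) and by 0.85 on a dim second probe. The call of its brighter probe was lost within replicates 1 and 2 (adjusted p = 0.0634). Ikbke (IKKε) rose by 0.84, or 1.79-fold (SE 0.08, limma adjusted p = 5.5e-05). Tab2, which joins the kinase TAK1 to ubiquitin chains, rose by 0.53 (SE 0.06, limma adjusted p = 0.000137) and by 0.35 on its other probe.

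In the list of other inhibitors and atypical IκB genes, 18 of 20 could be tested, and the median difference was 0.01. Of the 18, 7 rose and 3 fell, and 8 missed the threshold, beside 23.8% of all genes called higher and 25.0% lower. Bcl3, a nuclear IκB protein that binds p50 and p52 dimers, rose by 0.67, or 1.59-fold (SE 0.05, limma adjusted p = 1.57e-05). Nfkbiz, another nuclear member that is needed for Il6 induction in mouse macrophages, rose by 0.48 (SE 0.06, limma adjusted p = 0.000209) on its brighter probe, while its dimmer probe gave 0.13 (adjusted p = 0.393). N4bp1, a restrainer of NF-κB signalling, rose by 0.48 (SE 0.09, limma adjusted p = 0.00277), a call that was lost within replicates 1 and 2 (adjusted p = 0.0884). Its dimmer probe rose by 0.52 (SE 0.06, limma adjusted p = 0.000119). Nfkbid was dim and rose by 0.33 (SE 0.11, limma adjusted p = 0.0408), a call that was lost in 12 of 21 alternatives.

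**Figure D5:**
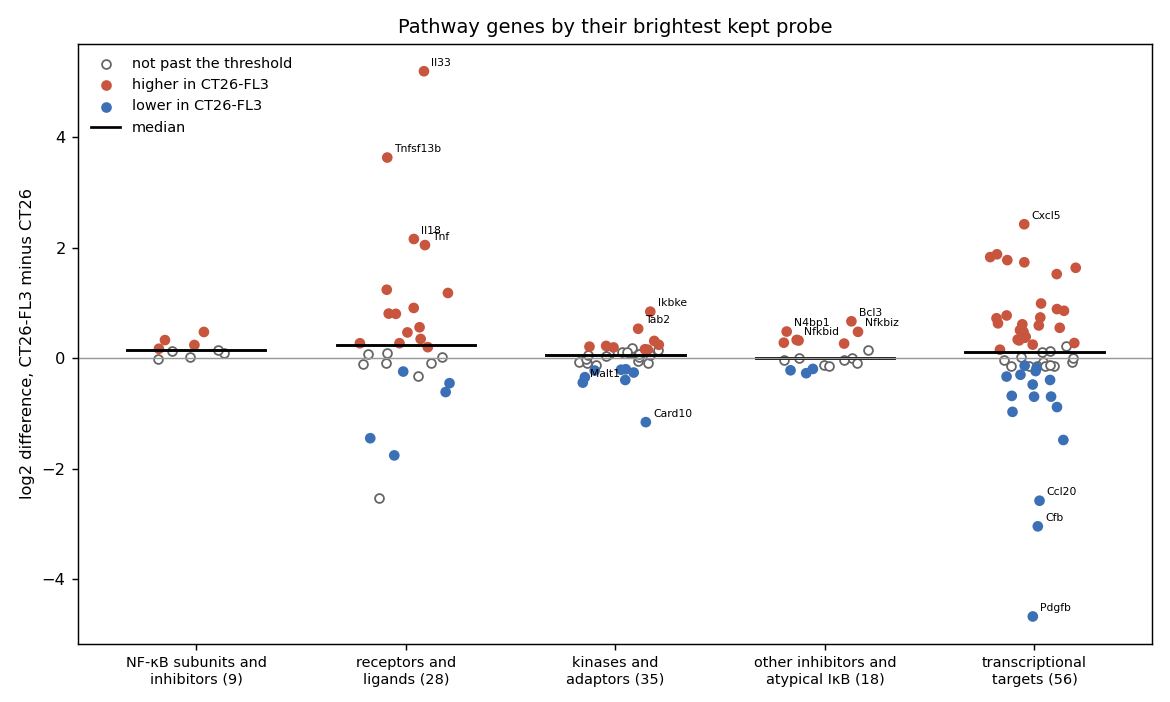
Difference CT26-FL3 minus CT26 in log2 level of the tested genes of the members and the 4 pathway lists, each point the brightest kept probe of a gene. The medians of the 4 pathway lists are 0.24 (receptors and ligands), 0.06 (kinases and adaptors), 0.01 (other inhibitors) and 0.12 (targets), and genes called higher and lower occur in every one of them.

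Of 40 genes of upstream receptors and ligands, 28 could be tested, and their median difference was 0.24. Among them 15 were called higher, 5 lower and 8 in neither direction. Over all genes 23.8% were called higher and 25.0% lower. Tnf, the classic trigger of the canonical route, was below the limit on all 4 CT26 arrays and above it on all 4 CT26-FL3 arrays. It was at least 2.47-fold higher in CT26-FL3. The probe was kept through the CT26-FL3 arrays alone, so the bound is given without a p. For this bound the dim line's value on each array was raised to the dimmest signal that passed the limit there, unless the probe itself was brighter. Il33 and Il18, cytokines of the interleukin-1 family, rose by 5.19 (SE 0.18) and 2.16 (SE 0.06) on the log2 scale. Il33 was above the limit on 3 of the 4 CT26 arrays, and with the constant of 50 its difference was 3.56. Tnfsf13b (BAFF), whose receptor engages the non-canonical route in B cells, rose by 3.63 (SE 0.15) on its brightest probe, and a dim probe gave 0.34 (adjusted p = 0.153). Il1a, Il1b, Lta, Cd40 and the BAFF receptor gene Tnfrsf13c were below the limit on all 8 arrays. Il18r1, a receptor gene for Il18, was above it on 1 CT26 array only.

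Of 67 textbook target genes, 56 could be tested, and their median difference was 0.12. There were 26 that rose, 16 that fell and 14 that missed the threshold, against 23.8% higher and 25.0% lower over all genes. The cytokine Il6 rose 3.68-fold (log2 1.88, SE 0.05, limma adjusted p = 5.1e-08) and the neutrophil chemokine Cxcl1 rose 3.42-fold (log2 1.78, SE 0.07, limma adjusted p = 3.18e-07). Il6 was dim in CT26, and with a constant of 50 added to the intensities its log2 difference was 1.04. The related chemokine Cxcl5 was called higher but was above the limit on 1 CT26 array only. Its fitted log2 difference was 2.42 in the main fit and 0.93 with the constant of 50, so its size is not settled. In the other direction, complement factor Cfb fell by 3.04 (SE 0.11), the growth factor Pdgfb was at least 9.92-fold lower and the chemokine Ccl20 at least 2.89-fold lower, with both of the latter below the limit on all 4 CT26-FL3 arrays. The adhesion molecule Icam1 was dim and fell by 0.30 (limma adjusted p = 0.0321), a call lost in 13 of 21 alternatives. Over the 4 lists, 57 of 137 tested genes rose and 32 fell, where 23.8% and 25.0% of all genes did. The counts include Tnf, Csf2, Saa3, Lcn2 and Bcl2a1b, which were above the limit on no CT26 array. They also include Ccl20 and Pdgfb, above it on no CT26-FL3 array. Each of these genes was kept through the other line alone, so its call partly follows from the filter. These lists were put together with earlier results of these data known, so the counts are a description.

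Markers of other cell types were listed because CT26-FL3 was taken from liver lesions. Of 22 macrophage and Kupffer cell markers, 9 were above the limit on all 4 CT26 arrays, 9 on all 4 CT26-FL3 arrays and 10 on none, with Ptprc and Adgre1 among the last. The sets of 9 were not the same: Lyz2 was above the limit on all 4 CT26 arrays and 0 CT26-FL3 arrays, and Mrc1 on 3 CT26 and 4 CT26-FL3 arrays. Their summed level, where 1 is the 75th percentile of the array, ran from 1.12 to 1.25 in CT26 and from 1.40 to 1.51 in CT26-FL3. For lymphocyte markers, 10 of 17 were above the limit on no array, and the sum ran from 0.340 to 0.460 and from 1.18 to 1.49. The fibroblast and stellate sum ran from 249 to 291 and from 253 to 274 (7 of 16 on no array), and the endothelial one from 3.63 to 4.15 and from 5.78 to 6.05 (5 of 14). The hepatocyte sum ran from 1.70 to 2.06 and from 0.936 to 1.01 (5 of 14), and that of colon epithelial markers from 1.79 to 1.88 and from 3.59 to 3.89 (7 of 15, with Epcam and Cdh1 among them). The part of these markers in the differences of the NF-κB genes was not tested.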

How the data were processed

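For each array the authors deposited the background-subtracted intensity of every spot, and for the series a table of log2 values centred per probe whose exact normalization is unknown. The submitters' processing notes name Agilent Feature Extraction without a version. Negative controls had median intensities of 2.23 to 7.43 beside background medians of 21.1 to 24.4, which is how the subtraction was seen. The columns of Feature Extraction planned for detection and outliers were not in this export, so a limit per array (2.6 times the median SD of the 153 negative control spots) and the mark for failed spots took their place. Set against the array values, centred alike, the deposited log2 columns had correlations between 0.991 and 0.997 over 10232 bright probes, which set their direction and scale. Their medians were -0.01, 0.00, -0.01 and 0.02 in CT26 and 0.00, 0.00, 0.02 and 0.00 in CT26-FL3.

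Control spots (1639 of 45018 per array) and failed spots were dropped. Log2 intensities of repeated spots were averaged, and the 75th percentile of each array (808 to 1151 intensity units) was subtracted. A probe was kept if above the limit on at least 4 arrays. The test was lmFit with eBayes of limma 3.58.1 (R 4.3.3), without a block, two-sided, adjusted by Benjamini-Hochberg over all 23068 kept probes, threshold 0.05, after a test on simulated data. A gene is represented by its brightest kept probe. The number of arrays limits the precision.

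The members, pathway lists and marker lists were chosen with earlier results of these data known. All members are named, with up to 4 genes with the largest called change per pathway list and 12 genes whatever their result (Chuk, Ikbkb, Ikbkg, Map3k14, Traf3, Birc2, Nfkbiz, Bcl3, Cxcl1, Il6, Icam1 and Tnf). Replicates are numbered by the sample names, since the titles number CT26-FL3 differently. Probe symbols came through gene identifiers (32524 probes), the platform annotation (140), accessions (814) or the array's own name (7651), and 45 probes with several genes were left unnamed. The arrays' files name no genome build, so coordinates belong to the RefSeq promoters only.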

Additional observations from a re-analysis of the deposited data

Results flagged for a closer look

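Among 40 named probes, each line's 4 arrays were examined for an array far from the other 3, and 5 of the 80 groups had one, where chance gives about 1 in 20. CT26 replicate 2 was low for Nfkbia at 3.82, with the nearest array at 3.92. CT26-FL3 replicate 2 was high for Chuk at 1.50 (nearest 1.37), and CT26 replicate 1 was low for Traf3 at 1.13 (nearest 1.18). CT26-FL3 replicate 3 was low for Card10 at -2.57 (nearest -2.34), and CT26-FL3 replicate 1 was low for N4bp1 at 1.98 (nearest 2.33). All values are normalized log2 levels.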

How the results depend on the processing

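Between 3 and 5 member probes were called higher under 19 of the 22 alternatives, and no called result changed direction. Leaving out 1 array at a time gave 4 member probes higher and 1 lower throughout, and 4713 to 5081 probes higher and 5203 to 5615 lower over all probes. The higher member count was 2 with the replicate block by title numbers, 1 in the array set of replicates 1 and 2, and 2 in the other set. The lower member count, which rests on the dim Birc3 probe, was 0 with a constant of 50 added, 0 with probes above the limit on all 8 arrays and 0 with only the brightest probe of each gene, where the probe is not in the fit. With that constant the dim genes had smaller differences (Il33 3.56, Cxcl5 0.93 and Tnf 0.69). Over all probes, 3827 were lower with the brightest probe of each gene (15097 tested). With fewer arrays, the set of replicates 1 and 2 gave 2907 higher and 2849 lower, and the set of replicates 3 and 4 gave 2831 and 2897. Pathway list genes called lower numbered 18 and 21 in these sets. Nfkbia lost its call with median centring (adjusted p = 0.0514), with no filter on dim probes (0.0614), with the title block (0.101) and within both sets. Nfkbie lost its call with the title block (0.0681) and within both sets.

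The replicate block by sample-name numbers gave 4 member probes higher and 1 lower, and 4939 and 5366 over all probes. Same-numbered samples correlated in their deviations at 0.0933, 0.0959, -0.0211 and 0.134, and title-number pairs at 0.0967, -0.200 and 0.146. Not all were above 0.1, so neither numbering was taken to pair the samples. The 4 same-numbered pairs also share an array set. Over all pairs across the lines, those sharing a set correlated at -0.0211 to 0.180, and those not sharing one at -0.231 to 0.108. The main fit has no block for the set, and the fit with that block is given above. Of the limits, signal near the detection limit bears on the second Birc3 probe, Rel, Nfkbid, Icam1, Cxcl5, Il33, Il6 and the bounds, among others.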

Other observations

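Among genes with a kept probe and a RefSeq promoter, 578 held a match to the 10-base κB consensus in the 250 bases before a start. Of these, 29.6% were called higher and 24.6% lower in CT26-FL3, against 24.4% and 25.8% of the 9907 genes without a match, and the difference between these shares was not tested. By list, a match was found for 14 of 45 target genes (31.1%), 4 of 15 other inhibitors (26.7%), 4 of 30 kinases and adaptors (13.3%) and 4 of 34 receptors and ligands (11.8%). Of the 11 tested target genes with a match, 5 rose and 3 fell.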
